A study of Mus musculus with 2 samples.

Results

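Bnip3, Bnip3l, Fundc1, Pink1 and Mgarp are 5 genes for mitochondrial proteins, the first 4 of which act in marking mitochondria for removal. They were followed on 2 Agilent two-colour arrays of mIMCD3, a mouse kidney epithelial cell line derived from the inner medullary collecting duct, to compare FGF23 stimulation with no stimulation. The genes were selected on earlier results of these same arrays, in which Bnip3 had the highest mean log2 ratio of all genes and Mgarp was also high. The spots were found by gene name. Their ratios are therefore given as a description, with no test. The 5 genes have 10 probes, each with 1 spot per array, out of 19220 genes measured above background.

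One RNA came from cells given 10 ng/mL of FGF23 for 4 h and the other from cells of the same line cultured without it. Both were grown in DMEM/F12 medium with serum. Each array held both RNAs. FGF23 RNA was labelled with Cy3 on array 1 (replicate 1) and with Cy5 on array 2 (replicate 2), and the direction of each ratio rests on these labels. Whether both arrays carry RNA of 1 culture or of several is not stated, so any spread between them may be technical. A change in RNA per cell and a change in which cells were present cannot be told apart in such pooled RNA.

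Mitophagy is the removal of mitochondria by autophagy. In one route, proteins anchored in the outer mitochondrial membrane act as receptors that bind the LC3 and GABARAP proteins of the forming autophagosome. BNIP3, its close relative BNIP3L (also called NIX) and FUNDC1 are such receptors, and low oxygen is known to raise transcription of Bnip3 and Bnip3l through hypoxia-inducible factors. In the other route, the kinase PINK1 builds up on mitochondria that have lost their membrane potential and activates the ubiquitin ligase Parkin. MGARP, also called HUMMR, is known as a hypoxia-induced mitochondrial protein that acts in mitochondrial transport along microtubules. It is not a mitophagy receptor.

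The Bnip3 measurement rests on 3 oligonucleotides of 60 bases each that lie on the minus strand of chromosome 7 (mm9), and the Mgarp measurement on 1 on chromosome 3. The first 30 bases of each are shown, 5′ to 3′, because the results turn on these 4 probes.

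A_55_P2091473, Bnip3, chr7:146082760-146082819: ccattaatcaggatccaaagctgcttaaat

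A_55_P2091472, Bnip3, chr7:146082640-146082699: ctgtcccacacttaactcaggtgtgctaaa

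A_66_P120736, Bnip3, chr7:146082536-146082595: ggagcaagatcctacaggatgtaatagtca

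A_55_P2048759, Mgarp, chr3:51192355-51192414: ctttctcttactttgttctatgtaagacca

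In the transcript NM_009760, these Bnip3 probes begin at bases 1455, 1575 and 1679. The 4 Bnip3l probes lie on chromosome 14 and begin at bases 943, 1044, 1167 and 3177 of NM_009761, so the last lies 2010 bases beyond its neighbour. Bnip3 and Bnip3l are related, but none of the 12 pairs of a Bnip3 and a Bnip3l probe shared a run of more than 7 bases on the same strand, over all 60 bases. The single probes of Fundc1 (chrX:17133867-17133926) and Pink1 (chr4:137869327-137869386) begin at base 1720 of NM_028058 and base 2304 of NM_026880. All 10 probes are exonic by their place in a transcript. Whether they are coding or untranslated was not analysed here.

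Every one of the 10 probes was well above background in both RNAs on both arrays, and none of their spots was saturated or an outlier. The correlation of the 2 dyes over the pixels of a spot varied, from 0.77 to 0.89 for the bright Bnip3 probes. It was -0.068 and 0.21 for Bnip3 probe A_66_P120736 on arrays 1 and 2. For the single probes of Mgarp and Fundc1 it was 0.10 and 0.28, and 0.13 and 0.16. All 10 had a log2 ratio above 0 on both arrays after loess, and of all 19220 genes 23.9% were above 0 on both. With median centring, which leaves intensity-dependent dye differences in place, 4 of the 10 were, namely the Bnip3 and Mgarp probes. The Bnip3l, Fundc1 and Pink1 probes then lay between -0.62 and -0.11 on array 1 and above 0 on array 2. The means ran from 0.11 for Fundc1 to 1.11 for a Bnip3 probe. Over all genes, the central range of log2 ratios, which leaves out the lowest and the highest 2.5%, ran from -0.29 to 0.26 on array 1 and from -0.22 to 0.29 on array 2.

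Bnip3 was the gene with the largest ratio. Its brightest probe, A_55_P2091472, had a normalized intensity (in linear scanner units after background and dye correction) of 5056 with FGF23 and 2646 without on array 1. On array 2 it had 5651 with FGF23 and 2516 without. Both FGF23 values lay above both unstimulated values, and the log2 ratio was 0.93 on array 1 and 1.17 on array 2 (mean 1.05 ± 0.16, SD, n = 2 arrays), or 2.07-fold.

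The second bright probe of Bnip3, A_55_P2091473, had 5248 with FGF23 against 2338 without on array 1, and 5237 against 2533 on array 2. Its log2 ratios were 1.17 and 1.05 (1.11 ± 0.084, SD, n = 2), a 2.15-fold difference. The array with the higher ratio was thus array 2 for the first probe and array 1 for this one, and the probes differed by less than the spread between arrays of A_55_P2091472.

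The third Bnip3 probe, A_66_P120736, was far dimmer, with 175 against 113 on array 1 and 205 against 122 on array 2. These values include a constant of 50 that the background correction adds to each channel. Its log2 ratios were 0.63 and 0.74 (0.69 ± 0.084, SD, n = 2), or 1.61-fold. With Agilent's processed log ratio, which adds no such constant, the same spots gave 1.23 and 1.37 (1.30 ± 0.10), and with a constant of 0 their mean was 1.08. The bright probes had 1.06 and 1.12 with Agilent's ratio. The third probe was therefore the lowest of the 3 in the first processing and the highest in the second. Its background-subtracted intensities without FGF23 were 77.1 in Cy5 (array 1) and 32.8 in Cy3 (array 2), against local backgrounds of 36 and 40.

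The dye correction matters for reading these spots. Before it, background-subtracted intensities of A_55_P2091472 on array 1 were 3416 in Cy3 (FGF23) and 3785 in Cy5 (unstimulated), and Cy5 was the brighter dye across the array. On array 2, with the dyes exchanged, they were 8247 in Cy5 (FGF23) and 1649 in Cy3 (unstimulated). Median centring, which removes only an array-wide difference, gave log2 ratios of 0.23 on array 1 and 1.85 on array 2, against 0.93 and 1.17 after loess. The value on array 1 thus rests largely on the intensity-dependent part of the correction.

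**Figure D1:**
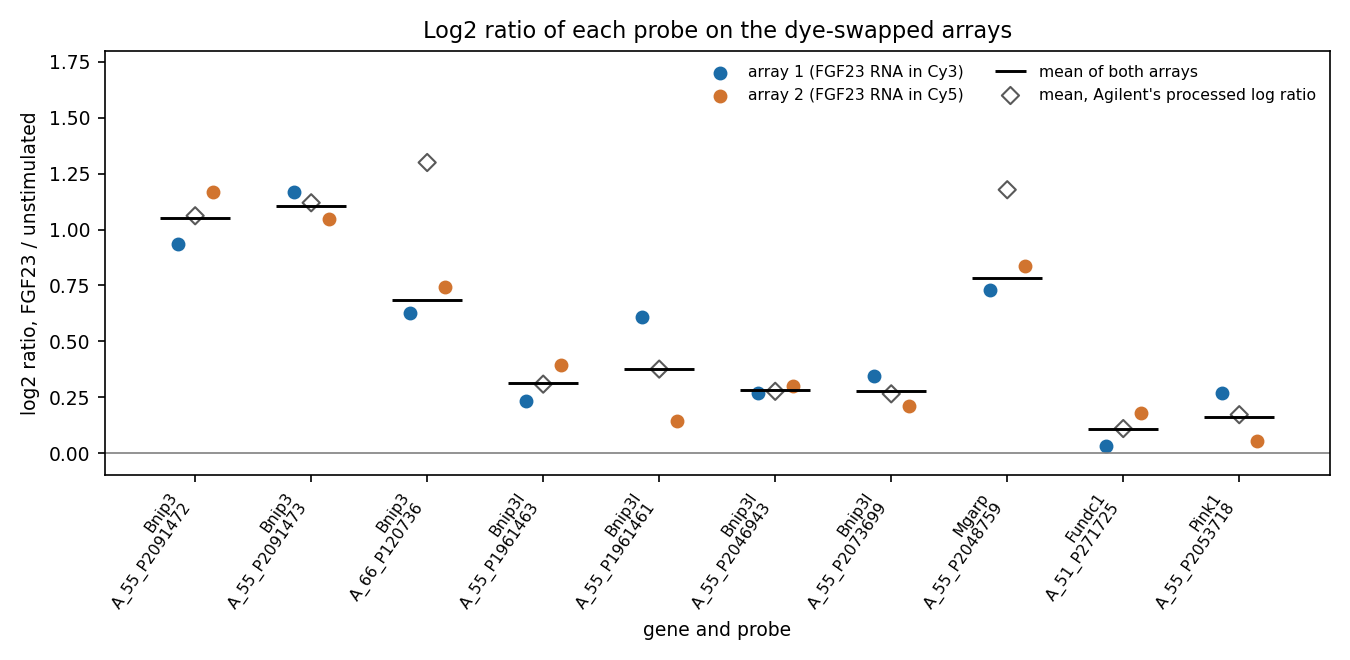
Log2 ratio of FGF23 over unstimulated RNA (vertical axis) for each of the 10 probes (horizontal axis). Filled points are the 2 arrays, bars their mean, and open diamonds the mean with Agilent's processed log ratio. All points lie above 0. The diamonds leave the bars for the 2 dim probes, A_66_P120736 (0.69 to 1.30) and the Mgarp probe (0.78 to 1.18).

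Bnip3l, the closest relative of Bnip3 among these genes, had smaller ratios, positive on both arrays after loess but negative on array 1 with median centring. Its brightest probe, A_55_P1961463, had 5616 with FGF23 and 4785 without on array 1, and 6119 and 4663 on array 2. The log2 ratios were 0.23 and 0.39 (0.31 ± 0.11, SD, n = 2), or 1.24-fold. The value on array 1 lay within the central range of all genes and that on array 2 above it.

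The next probe, A_55_P1961461, disagreed most between arrays, with 5048 against 3314 on array 1 and 4619 against 4177 on array 2. Its log2 ratios were 0.61 and 0.15 (0.38 ± 0.33, SD, n = 2), so its mean was the highest of the 4 and also the least certain. The most distant probe, A_55_P2046943, agreed most closely, at 0.27 and 0.30 (0.28 ± 0.025, SD, n = 2). The dimmest, A_55_P2073699, had 0.34 and 0.21 (0.28 ± 0.095, SD, n = 2).

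The mean over the 4 Bnip3l probes was 0.36 on array 1 and 0.26 on array 2, a mean of 0.31 ± 0.071 (SD, n = 2 arrays) and 1.24-fold. Probes of 1 gene share their RNA and are not replicates. The mean over the 3 Bnip3 probes was 0.91 and 0.99 (0.95 ± 0.055, SD, n = 2), or 1.93-fold. The 8 Bnip3l values by probe and array ran from 0.15 to 0.61, and the 6 Bnip3 values from 0.63 to 1.17, so the ranges did not overlap but came close. With Agilent's processed log ratio they were further apart, at 0.14 to 0.61 and 0.94 to 1.37. With median centring they overlapped, at -0.50 to 1.09 and 0.23 to 1.85.

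Fundc1 encodes a receptor that is regulated by phosphorylation and works during low oxygen. Its probe, A_51_P271725, had 1300 with FGF23 and 1272 without on array 1, and 1452 and 1282 on array 2. The log2 ratio was 0.032 on array 1 and 0.18 on array 2 (0.11 ± 0.10, SD, n = 2), or 1.08-fold. The FGF23 and unstimulated values were closest on array 1, and both ratios were within the central range of all genes.

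Pink1 encodes the kinase of the Parkin route. Its probe, A_55_P2053718, had 758 with FGF23 and 629 without on array 1, and 701 and 675 on array 2. The log2 ratio was 0.27 on array 1 and 0.053 on array 2 (0.16 ± 0.15, SD, n = 2), or 1.12-fold. The value on array 1 lay just above the central range of all genes, which ended at 0.26 there. The arrays differed in the opposite sense to Fundc1, and the spread of each gene was about as large as its mean.

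Mgarp had the highest log2 ratio of the 5 genes after Bnip3. Its probe, A_55_P2048759, was dim, with 245 with FGF23 against 148 without on array 1, and 271 against 152 on array 2. The log2 ratios were 0.73 and 0.84 (0.78 ± 0.079, SD, n = 2), or 1.72-fold. As for the dim Bnip3 probe, the value depended on the processing. Agilent's processed log ratio gave 1.16 and 1.19 (1.18 ± 0.024) and a constant of 0 gave a mean of 1.08. Background-subtracted intensities in the unstimulated channel were 125 in Cy5 and 56.1 in Cy3, against local backgrounds of 34 and 42. On Agilent's scale the Mgarp values lay within the range of the Bnip3 probes, and with the added constant its mean lay between the dim and the bright Bnip3 probes.

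**Figure D2:**
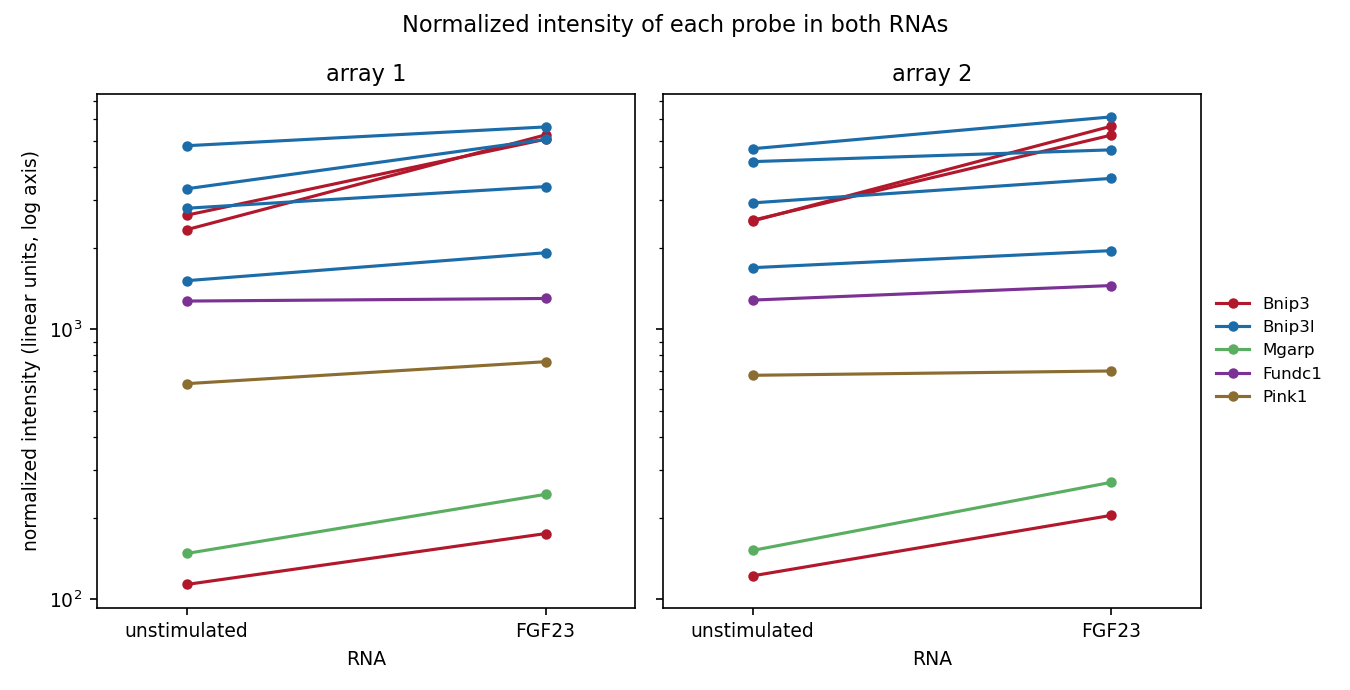
Normalized intensity in linear units on a log axis (vertical) of each probe in unstimulated and FGF23 RNA (horizontal), with array 1 on the left and array 2 on the right. Each line joins the 2 RNAs for 1 probe. Both bright Bnip3 lines run from between 2338 and 2646 to between 5056 and 5651, while the Fundc1 and Pink1 lines are nearly flat on at least 1 array.

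By mean log2 ratio of the brightest probe, the order was Bnip3, Mgarp, Bnip3l, Pink1 and Fundc1. Pink1 and Fundc1 did not differ beyond their spread, and neither did Bnip3l and Pink1, whose array values overlapped (0.23 and 0.39 against 0.27 and 0.053). The order of Bnip3 and Mgarp changed with the processing. The slope of observed on expected log ratios of the spike-in controls was 0.851 and 0.852 per the file headers. Folds in Agilent's own processing are thus compressed to some degree. The slope was not determined for the ratios used here, which include the added constant.

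The mean Cy5 over Cy3 ratio with neither array turned carries the dye effect of a probe together with any other difference between the arrays. A treatment effect shared by both arrays cancels in this ratio. Whether agreement between the arrays entered the choice of genes is not known, so the ratio is not taken as independent of that choice. Over the 10 probes it ran from -0.23 to 0.12, with 6 above 0 and 4 below, and the median of its absolute value was 0.070. Over all 26941 probes above background that median was 0.061, and the central range of the signed values ran from -0.16 to 0.21. The Bnip3l probe A_55_P1961461 (-0.23) lay outside that range, and the other 9 lay inside. The same difference between arrays makes up the SD of each probe, so this probe also had the largest SD of the 10.

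In limma's fit across all genes, 9 of 19220 genes were called higher (0.0468%) and 0 lower (0%) at a Benjamini-Hochberg adjusted p below 0.05. At an unadjusted p below 0.05, 500 were higher and 251 lower. Bnip3 and Mgarp were 2 of those 9 genes, and Bnip3l, Fundc1 and Pink1 were not among them. Without a test, a 1.5-fold or larger excess with FGF23 on each array was seen for 6 genes (0.0312%), Bnip3 (1.91-fold and 2.25-fold) and Mgarp (1.66-fold and 1.79-fold) among them. Nothing is read from these counts, since this contrast chose the genes, and with 2 arrays limma's threshold was lenient on simulated ratios. With Agilent's processed log ratio limma called 0 genes (586 higher and 550 lower at an unadjusted p below 0.05), and the mean log2 ratio of Bnip3 was 1.06. With median centring limma called 0 genes (0 and 0 unadjusted), and that of Bnip3 was 1.04.

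Leaving out the 5 described genes, the 3 genes with a symbol whose pair of log2 ratios on the 2 arrays lay nearest to that of Bnip3 were Mt1, Mt2 and Selenbp1, at Euclidean distances of 0.35, 0.39 and 0.57. The same 3 lay nearest to Mgarp, with Mt2 at 0.021, Mt1 at 0.16 and Selenbp1 at 0.19. Bnip3 and Mgarp themselves lay 0.39 apart, nearer than Bnip3 and Selenbp1. The metallothionein Mt2 had log2 ratios of 0.74 and 0.82, its relative Mt1 had 0.64 and 0.98, and the selenium-binding protein Selenbp1 had 0.67 and 0.66. A second, dim probe of Mt1 had -0.048 and 0.11. Likeness over 2 arrays amounts to a like mean and a like difference between arrays.

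**Figure D3:**
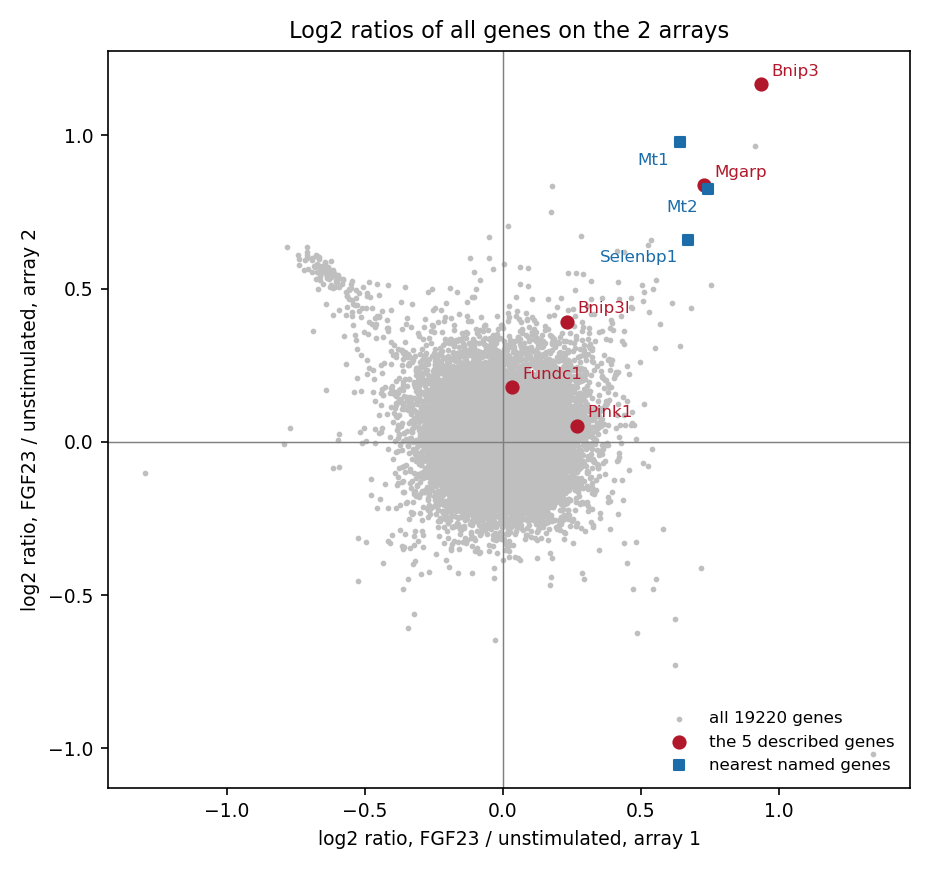
Log2 ratio of FGF23 over unstimulated RNA on array 1 (horizontal axis) and array 2 (vertical axis), 1 point per gene for all 19220 genes. Red points are the 5 described genes and blue squares the 3 named genes nearest to Bnip3 and to Mgarp when those 5 are left out. Bnip3 is at the upper right (0.93 and 1.17), Mgarp nearly coincides with Mt2, and Fundc1 and Pink1 lie at or within the edge of the main cloud.

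Because Bnip3 and Mgarp were high together, the 250 bases before their annotated starts were searched for the letters ACGTG and GCGTG on both strands, the core that hypoxia-inducible factors bind. RefSeq promoter windows (GRCm38.p6) were given for 4 of the 5 genes, all but Bnip3l. The windows of Bnip3 (chr7:138909507-138909756, minus strand) and Mgarp (chr3:51396548-51396797, minus strand) are shown 5′ to 3′ with matches in capitals.

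Bnip3: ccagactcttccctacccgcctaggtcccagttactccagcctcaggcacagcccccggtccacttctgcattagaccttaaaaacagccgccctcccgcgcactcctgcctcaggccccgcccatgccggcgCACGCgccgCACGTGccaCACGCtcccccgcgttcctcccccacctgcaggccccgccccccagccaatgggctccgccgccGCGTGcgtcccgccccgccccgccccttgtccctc

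Mgarp: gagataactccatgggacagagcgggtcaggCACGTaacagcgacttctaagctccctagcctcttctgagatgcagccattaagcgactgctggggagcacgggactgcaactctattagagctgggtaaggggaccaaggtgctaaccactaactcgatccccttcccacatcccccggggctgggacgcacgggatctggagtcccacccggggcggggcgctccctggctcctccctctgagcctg

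The Bnip3 window held 5 matches, counted by strand, of which the pair at -108 to -103 overlaps as the palindrome CACGTG. The others lay at -117 to -113, -99 to -95 and -35 to -31, counted back from the start. Mgarp held 1 match, at -219 to -215. Pink1 held 1, at -47 to -43, and Fundc1 held 0. Among 32851 RefSeq windows of the same length, 38.6% held at least 1 match and 1.01% at least 5. The Bnip3 window also held 24 CpG pairs against a median of 6, and both motifs contain a CpG. A match is only a run of letters and shows no binding, and a window without one says nothing of the factor.

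The other genes of the pathway had small log2 ratios. Lists of mitophagy, autophagy and mitochondrial genes other than these 5 held 115 genes, of which 109 were measured above background. None of the 109 passed limma's test in either direction, with a lowest adjusted p of 0.969, and 1 had an unadjusted p below 0.05. Over all 19220 genes 9 passed as higher (0.0468%) and 0 as lower. The lack of calls here and in each list below is therefore near the share of all genes and does not set these genes apart. On both arrays 31 were above 0 and 19 below, or 28.4% and 17.4%, against 23.9% and 22.3% of all genes. Their median log2 ratio was 0.020, against -0.00068 over all genes.

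Among other mitophagy receptors, 0 of 6 measured passed and the median was -0.0070. Phb2, an inner-membrane receptor, had -0.050 and -0.18, with both of its probes negative on both arrays, and the outer-membrane receptor Bcl2l13 had 0.15 and 0.0063. Of 18 genes of the PINK1-Parkin route 0 passed (median -0.0096). Clec16a, a regulator of this route, had 0.16 and 0.057, and the protease Parl, which cuts PINK1, had 0.018 and -0.21. Of 6 measured cargo adaptors 0 passed (median 0.026), and the adaptors Nbr1 and Calcoco1 had means of 0.13 ± 0.048 and 0.11 ± 0.16 (SD, n = 2).

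The ATG8 proteins are the partners that the receptors bind. All 5 genes were measured, 0 passed, and the median was 0.073, the highest of the 10 lists. Gabarapl1 had 0.21 and 0.13, both positive. Map1lc3b, which encodes LC3B, had -0.044 and 0.27, of opposite sign on the arrays. Of 23 measured genes of autophagy initiation and conjugation 0 passed (median 0.049). On both arrays 11 were above 0 and 2 below, or 47.8% and 8.70%, against 23.9% and 22.3% of all genes. This share above 0 was the highest of the 10 lists. The lowest was 8.33%, among mitochondrial outer membrane and matrix genes, with 1 above 0 and 4 below. No list was tested as a set. The kinase gene Ulk1 had 0.046 and 0.26 and its complex partner Atg13 had 0.27 and 0.077. Of 8 lysosome genes 0 passed (median 0.039), with the membrane protein Lamp2 at 0.13 and 0.16 and the channel Mcoln1 at 0.26 and -0.0021.

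Mgarp is tied to mitochondrial movement. Of 9 measured transport genes 0 passed (median -0.00051). Armcx3 had -0.53 and 0.30 by its brightest probe, an opposite sign on the arrays, and -0.024 and 0.0015 by another. The motor gene Kif5c had 0.045 and 0.17. Of 10 fission and fusion genes 0 passed (median 0.031), with the fission factor Mff at 0.059 and 0.12 and Mtfp1 at -0.071 and -0.050.

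BNIP3 and BNIP3L carry a BH3-like region and bind BCL2 proteins. Of 16 measured genes of the BCL2 family and BNIP relatives 0 passed (median -0.013). The BH3-only gene Bmf had the largest value of all 109, at 0.091 and 0.57 (0.33 ± 0.34, SD, n = 2), which rests mostly on array 2. Bik, another BH3-only gene, had 0.24 and 0.12. The list of 12 outer-membrane and matrix genes, which also holds the inner-membrane gene Timm23, had the lowest median of the 10 lists, -0.047, and 0 passed. Mitochondrial content itself was not tested. Timm23, an import subunit, had 0.0042 and -0.22, and the import receptor Tomm70a had -0.067 and -0.11.

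**Figure D4:**
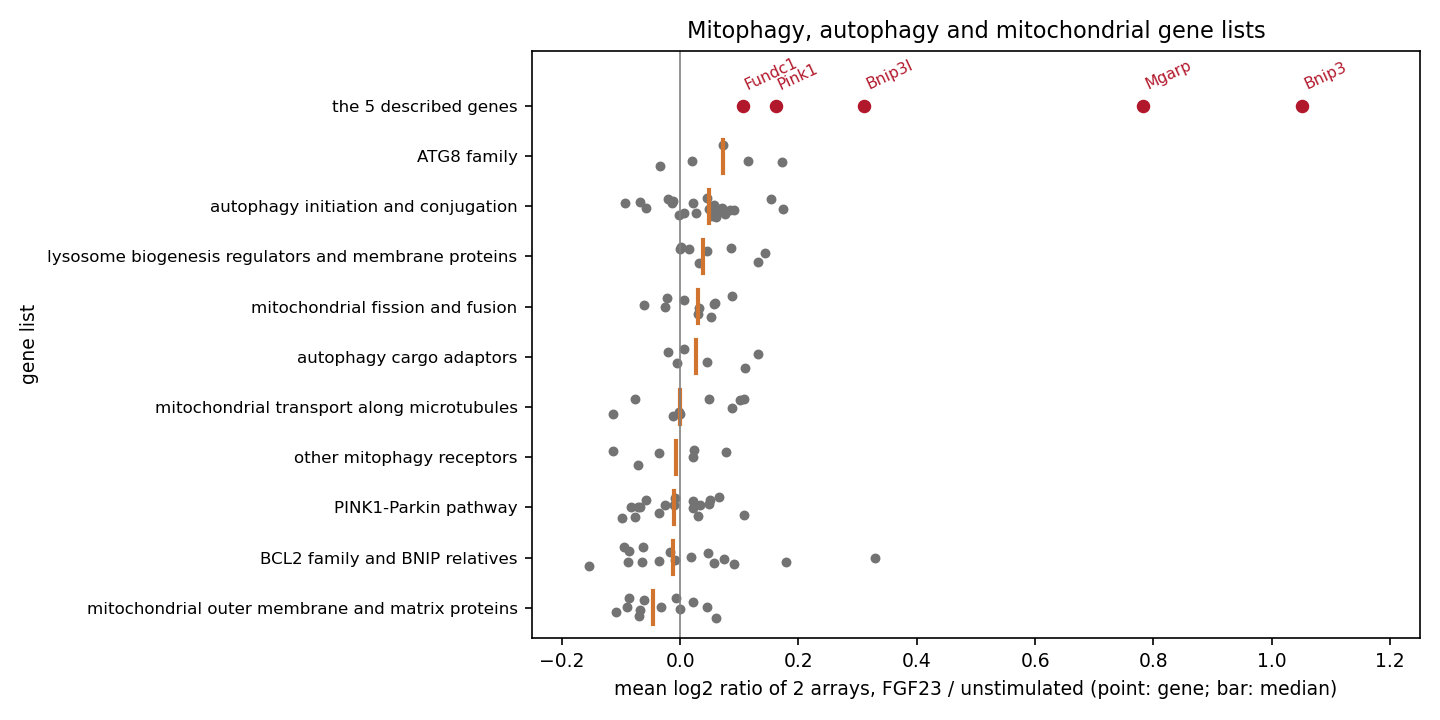
Mean log2 ratio of both arrays (horizontal axis) for each measured gene of 10 lists (vertical axis) and, in red, for the 5 described genes by their brightest probe. Bars are list medians, which run from -0.047 to 0.073. Bnip3 (1.05) and Mgarp (0.78) lie beyond all listed genes, and Bnip3l (0.31) lies near Bmf (0.33).

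The label of the cells was checked against markers. Of 13 collecting duct and epithelial markers 11 were above background, including Aqp2, Cdh1, Epcam and Gata3, while Aqp3 and Avpr2 were not. Among markers of other cells, 3 of 5 for macrophages, 2 of 5 for endothelium and 1 of 6 for fibroblasts were above background, as were 3 of 6 for proximal tubule and 2 of 5 for the thick limb and intercalated cells. Over all genes, 19220 of 34763 were above background, so the counts for other cells do not tell whether such cells were present. The markers of other cells above background were Cd68, Csf1r and Itgam (macrophage), Pecam1 and Kdr (endothelium), Col1a1 (fibroblast), and Lrp2, Cubn and Slc22a6 (proximal tubule). Umod and Slc4a1 (thick limb and intercalated cells) were above background too. The general leukocyte marker Ptprc, the endothelial marker Cdh5 and the proximal tubule transporter Slc34a1 were among those not above background. No marker passed the test, and the part of other cell types in the Bnip3 and Mgarp values was not tested.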

How the data were processed

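The deposited files, written by Agilent's Feature Extraction software (version 11.5.1.1, per the file headers), give linear intensities per spot and dye, background and detection flags, and a background-subtracted, dye-normalized log10 ratio (red, Cy5, over green, Cy3). Probe positions are on mm9 per the file headers.

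Mean signals were corrected with normexp (constant 50) and normalized within arrays by loess in limma 3.58.1 (R 4.3.3), control spots at weight 0. Outlier and control spots were dropped. Ratios were turned to FGF23 over unstimulated. Kept were 26941 of 55681 probes, well above background on both arrays in at least 1 RNA. The brightest kept probe stood for a gene. Symbols were updated through RefSeq for 28026 probes. Genes were tested with limma (lmFit, eBayes) and Benjamini-Hochberg adjustment over 19220 genes with 1 residual degree of freedom. On simulated ratios it recovered the changed genes but also called more unchanged genes than the threshold allows. The simulation drew both arrays independently and held no dye effect, so it cannot show whether the calls on these arrays are lenient. The median signal was 52.5 to 76.9 over a background of 37 to 40, 48.2% to 55.2% of spots were well above background, and the number of arrays limits precision.

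Named were all probes of the 5 genes, the 2 largest absolute means per list where none passed, and the 3 nearest genes to Bnip3 and to Mgarp. Genes and lists were chosen with earlier results of these data known.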

Additional observations from a re-analysis of the deposited data

How the results depend on the processing

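Mean log2 ratios of Bnip3, Bnip3l, Fundc1 and Pink1 moved by less than the SD of the arrays with Agilent's ratio, a normexp constant of 0 and the mean of a gene's probes. In the mean of a dye swap, what median centring leaves of the dye cancels by construction, so its like mean says nothing of stability, and Bnip3 was then at 0.23 on array 1 and 1.85 on array 2. Mgarp was at 1.18 by the scanner software's own ratio and 1.08 by normexp with a constant of 0, and the dim Bnip3 probe A_66_P120736 at 1.30 and 1.08, respectively. A constant added to both dyes pulls dim ratios towards 0 by its construction. The cause of the further shift with the software's ratio was not tested. Genes called higher numbered 0 with Agilent's log ratio, 0 with median centring, 5 with a constant of 0, 16 over averaged probes and 59 with an intensity trend and robust prior. Genes called lower numbered 1 over averaged probes and 20 with the trend. Bnip3 and Mgarp were called in each of these except after median centring and in Agilent's log ratio. Nothing is read from their calls, since this contrast on the same arrays chose them. The cause of the differences in calls was not tested. With median centring the median absolute dye contrast of the 10 probes was 0.61, and 4 of the 10 were above 0 on both arrays, against 3.03% of all genes. The median of the other mitophagy and autophagy genes was -0.0030 on array 1 and 0.028 on array 2, and none of them was called under any alternative. Under the alternatives, 76 values stayed within the spread or within 1.5 times and 13 did not. Low signal limits the Mgarp probe and the dim Bnip3 probe most.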
